A study of Mus musculus with 4 samples.

Results

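The 10 genes described here encode proteins of the nuclear lamina and of chromatin, and were followed on 4 Affymetrix mouse expression arrays of melan-a cells, a line of pigmented mouse melanocytes. The genes were taken by name from a list described as falling in senescence, a description not checked here for each gene. They were chosen with earlier results of these data known. The genes are Lmnb1, Lmnb2, Lmna, Lbr, Tmpo, Hmgb2, Hells, Ezh2, Uhrf1 and Dnmt1. They make up 10 of 18193 named genes, and all 28 of their probe sets among 45101 were used. A probe set is the group of short oligonucleotides that reads one transcript. None of the 28 was annotated to a second gene.

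There was 1 array for each of 4 cultures, all melan-a Hmhi cells or derivatives, and all kept for 14 days in medium with dialyzed fetal serum, for which the labels do not list the phorbol ester TPA and the cholera toxin of the growth medium. The first, Hmhi starved, received nothing else. The second, Hmhi EGF, received epidermal growth factor at 100 ng/ml. The third, labelled Miz1 kd, was the Hmhi-pS-Miz1 line with the same EGF, and the fourth, MYC-TA, was the Hmhi-MYC-TA line with the same EGF. The labels spell out neither Hmhi nor MYC-TA, and they do not say whether a line was 1 clone. The series title places the study in the control of melanocyte senescence by Myc and Miz-1.

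Where 4 values stand in a row, their order is Hmhi starved, Hmhi EGF, labelled Miz1 kd and MYC-TA. Values are log2 signals, on a scale where 1 unit is 2-fold and where every array had a median of 6.66. Where a gene has several probe sets, the brightest stands for it. With 1 array per condition there is no replicate spread, so no difference was tested, and each compares 2 arrays rather than 2 conditions. The only spread at hand is the SD between probe sets of the same gene, over all genes, not between arrays or cultures. It was 0.32 for Hmhi EGF minus Hmhi starved, 0.22 for labelled Miz1 kd minus Hmhi EGF and 0.25 for MYC-TA minus Hmhi EGF. The comparisons share arrays, so a deviation of 1 culture enters several of them. In RNA of a whole culture, fewer cells of a kind and less RNA per cell cannot be told apart.

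Zbtb17, the gene of Miz-1, read 8.73, 8.72, 9.08 and 8.71, so it was not lower on the array labelled Miz1 kd, which is therefore named by its label throughout. Myc read 10.64, 10.60, 10.79 and 9.78. Of 10 melanocyte markers, 7 to 8 were at or above the median on each array, with Sox10 between 12.96 and 13.37 and Tyrp1 between 13.05 and 14.09, while Tyr stayed below it at 4.62 to 5.63. Of 8 keratinocyte markers 2 were at or above the median on every array, and of 5 endothelial markers 0 to 1. Of 8 fibroblast markers 3 to 4 were, and of 6 macrophage and blood cell markers 2 to 3. Col1a1, Lum, Thy1, Ptprc, Adgre1 and Itgam were below the median on all 4 arrays. Above it on all 4 were Lyz2 at 10.74 to 12.37 and Csf1r at 6.73 to 9.41 of the macrophage list, and Dcn at 9.45 to 11.56, Postn at 7.91 to 10.15 and Pdgfra at 7.40 to 8.24 of the fibroblast list. Cd68 was above it on the 3 EGF arrays, at 8.05 to 8.28. Summed signals on the log2 scale were 15.23, 14.76, 14.96 and 14.55 for the melanocyte markers and 12.17, 12.49, 12.06 and 11.12 for the macrophage and blood cell markers, of which Lyz2 was the brightest. Their part in the differences below was not tested.

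The nuclear lamina is a meshwork of lamin filaments under the inner nuclear membrane, to which large stretches of silent chromatin are attached. B-type lamins are made in nearly all cells, and loss of lamin B1 is widely used as a marker of senescence. The chromatin proteins studied here bind, bend or methylate DNA, remodel chromatin or methylate histones. They are made mainly by dividing cells, many of them under E2F transcription factors, so that their transcripts decline when cells leave the cell cycle.

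Promoter windows of 300 bases (250 before and 50 from the start of the transcript onward, RefSeq, GRCm38.p6) were available for 9 of the 10 genes, in 15 windows, and are shown for genes of each pattern described below. Lmnb1 was not matched. Windows were searched on both strands for E2F motifs, spelled TTNNCGC with C or G at each N. They were also searched for the cell cycle homology region, or CHR, spelled TTTGAA, for the CCAAT box, and for the E-box bound by MYC, spelled CACGTG. E2F motifs were in 7 of the 15 windows, against 9.57% of all 32851 windows. CCAAT was in 9 of the 15, against 37.4%, and the CHR letters were in 4, against 17.9%. The E-box was in 0 of the 15, against 7.15%. By gene, E2F motifs were in 6 of the 9, CCAAT in 7 and the CHR letters in 4. Genes with several windows have more chances of a match, and no share per gene was computed over all genes. A match is a string of letters and does not show that a factor binds there. Capitals mark the E2F, CHR and CCAAT matches, and CCAAT matches on opposite strands may overlap. Hells (chr19:38930740-38931039, plus strand), Uhrf1 (chr17:56303087-56303386, plus strand) and Hmgb2 (chr8:57511593-57511892, plus strand) stand for the genes with a further increment in MYC-TA. Lbr (chr1:181842352-181842651, minus strand) and Ezh2 (chr6:47594981-47595280, minus strand) stand for those that were alike on the 3 EGF arrays, and Lmna (chr3:88493263-88493562, minus strand) for the opposite direction.
Hells: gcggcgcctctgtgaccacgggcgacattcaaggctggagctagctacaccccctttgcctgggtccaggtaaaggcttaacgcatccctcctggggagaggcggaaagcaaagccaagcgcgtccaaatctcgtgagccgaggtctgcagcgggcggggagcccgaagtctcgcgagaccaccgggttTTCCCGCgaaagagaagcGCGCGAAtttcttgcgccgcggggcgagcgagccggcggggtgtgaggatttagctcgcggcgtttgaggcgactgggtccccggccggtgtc
Uhrf1: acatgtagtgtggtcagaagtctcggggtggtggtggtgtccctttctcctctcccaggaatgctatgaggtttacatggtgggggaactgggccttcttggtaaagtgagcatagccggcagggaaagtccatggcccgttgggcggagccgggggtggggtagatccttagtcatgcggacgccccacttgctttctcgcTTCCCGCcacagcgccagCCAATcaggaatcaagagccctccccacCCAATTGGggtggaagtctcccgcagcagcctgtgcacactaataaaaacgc
Hmgb2: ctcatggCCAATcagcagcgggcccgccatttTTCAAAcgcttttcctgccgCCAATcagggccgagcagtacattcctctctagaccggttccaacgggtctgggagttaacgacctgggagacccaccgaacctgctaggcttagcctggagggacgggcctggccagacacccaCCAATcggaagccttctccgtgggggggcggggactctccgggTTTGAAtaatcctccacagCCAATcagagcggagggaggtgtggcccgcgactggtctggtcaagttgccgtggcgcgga
Lbr: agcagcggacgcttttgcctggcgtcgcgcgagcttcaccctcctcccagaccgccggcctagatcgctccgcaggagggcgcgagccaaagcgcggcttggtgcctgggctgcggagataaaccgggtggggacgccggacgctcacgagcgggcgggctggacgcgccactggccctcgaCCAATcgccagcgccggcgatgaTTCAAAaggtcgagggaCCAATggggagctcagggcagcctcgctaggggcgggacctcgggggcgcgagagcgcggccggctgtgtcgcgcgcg
Ezh2: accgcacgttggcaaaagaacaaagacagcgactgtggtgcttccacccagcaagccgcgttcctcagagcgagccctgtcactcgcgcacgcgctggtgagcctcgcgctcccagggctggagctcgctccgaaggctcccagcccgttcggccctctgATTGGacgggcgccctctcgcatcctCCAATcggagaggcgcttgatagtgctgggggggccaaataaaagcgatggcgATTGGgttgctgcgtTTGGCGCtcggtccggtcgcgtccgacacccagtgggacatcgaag
Lmna: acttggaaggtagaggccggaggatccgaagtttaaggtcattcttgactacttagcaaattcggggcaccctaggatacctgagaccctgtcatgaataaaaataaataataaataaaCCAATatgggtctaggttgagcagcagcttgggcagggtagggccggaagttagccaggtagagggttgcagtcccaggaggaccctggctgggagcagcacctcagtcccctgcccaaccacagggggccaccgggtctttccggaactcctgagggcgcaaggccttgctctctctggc
Positions below are those of the first base of a match, with the start of the transcript as 0. Hells had E2F matches at -61 and -43, Uhrf1 had one at -48 and Ezh2 had one at 4. Hmgb2 and Lbr held no E2F match in these windows, but both held the CHR letters, at -218 and -30 in Hmgb2 and at -45 in Lbr. Lmna held a single CCAAT match, at -131. E2F matches were also present in a second window of Uhrf1 and in windows of Tmpo, Dnmt1 and Lmnb2. They thus did not separate the genes with a further increment in MYC-TA from those alike on the 3 EGF arrays. Hells and Uhrf1 held them and Hmgb2 did not, while Ezh2, Tmpo, Dnmt1 and Lmnb2 held them and Lbr did not. Lmna held neither an E2F match nor the CHR letters in its 2 windows.

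On their brightest sets, 8 of the 10 genes were lowest in Hmhi starved and 8 were highest in MYC-TA. The share of all genes with such orders was not computed. For Lbr, Tmpo, Ezh2 and Dnmt1, MYC-TA led the next array by only 0.108, 0.101, 0.135 and 0.096. Each of these leads was below the SD between probe sets for that pair. Several other sets of Tmpo were highest on the array labelled Miz1 kd. Every brightest probe set was at or above the array median on all 4 arrays, so all 10 genes entered every comparison. The genes Lmnb1, Hmgb2, Hells and Uhrf1 spread over 0.856 to 1.81 log2 units among the 3 EGF arrays, with MYC-TA the highest. The other 6 spread over 0.125 to 0.353. This division was made after the values were seen.

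**Figure D1:**
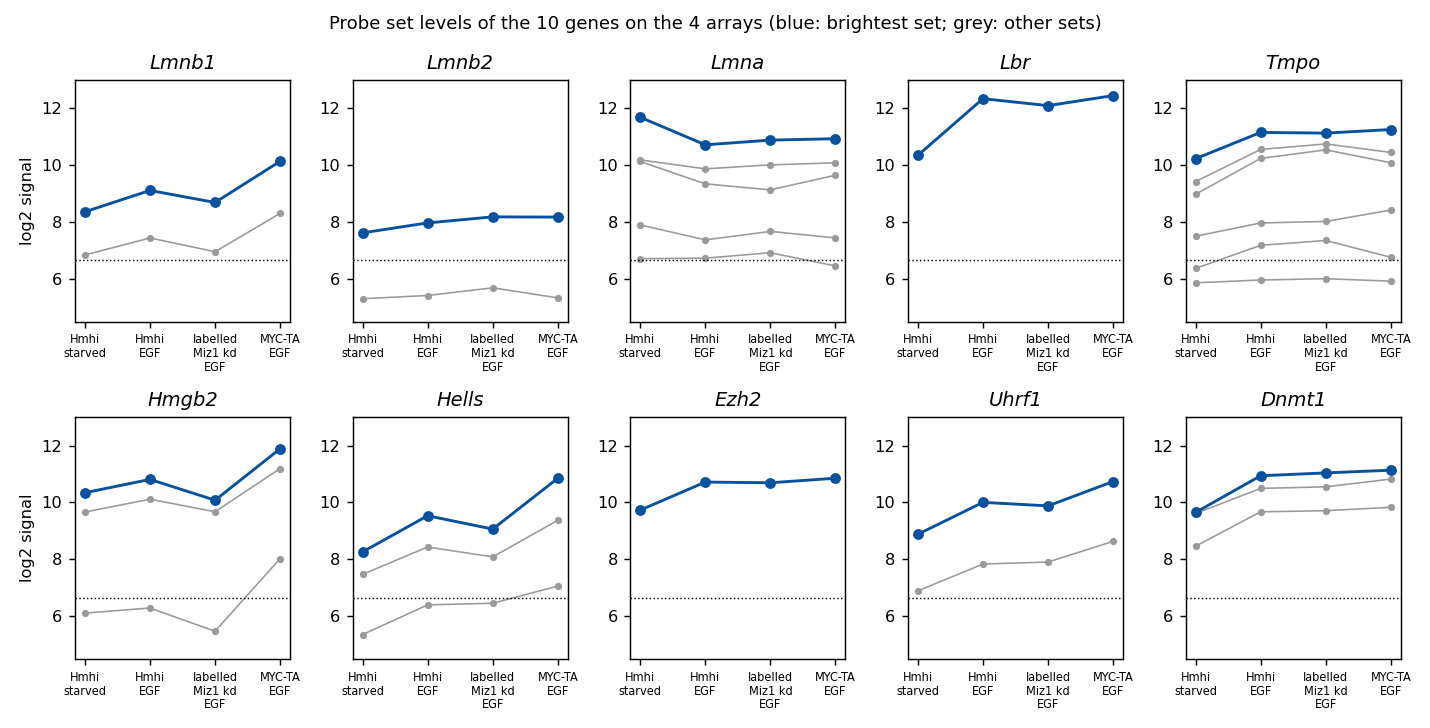
Log2 signal (vertical axis) of every probe set of the 10 genes on the 4 arrays (horizontal axis), 1 array per condition, with the brightest set of a gene in blue, its other sets in grey and the array median of 6.66 as a dotted line. Lines join the arrays only to guide the eye. On the brightest sets, Lmnb1, Hmgb2 and Hells peak in MYC-TA, and Lmna is highest in Hmhi starved. On these sets Lbr, Tmpo, Ezh2 and Dnmt1 lie lowest in Hmhi starved and close together on the 3 EGF arrays.

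Lmnb1, which encodes lamin B1, read 8.36, 9.11, 8.69 and 10.14 on its brighter probe set (1423521_at). The dimmer set read 6.84, 7.44, 6.96 and 8.31, in the same order of arrays. Hmhi starved and the array labelled Miz1 kd were the lowest, 0.33 apart, which is less than the SD between probe sets of 0.42 for that pair. MYC-TA stood alone at the top, 1.02 above Hmhi EGF, a 2.03-fold difference, and 3.42-fold above Hmhi starved.

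Lmnb2, which encodes lamin B2, varied less, at 7.62, 7.97, 8.18 and 8.18 (1448531_at). Its whole range was 0.56, and neighbours among the 3 EGF arrays lay closer than the SD between probe sets. Its second set was below the array median on all 4 arrays, at 5.31 to 5.69, and entered no comparison.

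Lmna encodes lamins A and C, which come from the same gene by alternative splicing and are typical of differentiated cells. It went the other way, at 11.68, 10.71, 10.88 and 10.93 (1421654_a_at), highest in Hmhi starved. On this set Hmhi EGF was 1.96-fold lower than Hmhi starved, just short of 2-fold, and the 3 EGF arrays differed by at most 0.21. Of its 5 probe sets, 4 were lower in Hmhi EGF, by 0.31 to 0.97, and the dimmest was level at 0.018. That dimmest set (1452212_at) read 6.72, 6.73, 6.92 and 6.46, close to the array median. The size of the Lmna difference thus depends on the probe set read.

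Lbr encodes the lamin B receptor, an inner membrane protein that tethers heterochromatin and also has sterol reductase activity. Its only probe set (1415829_at) read 10.34, 12.34, 12.09 and 12.44. All 3 EGF arrays were above Hmhi starved by 1.75 to 2.10, and they differed among themselves by at most 0.353. At 3.98-fold between Hmhi EGF and Hmhi starved it had the largest difference of the 10 genes in that comparison.

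Tmpo encodes the lamina-associated polypeptides 2, splice forms that bind lamins and chromatin. Its brightest set (1428976_at) read 10.23, 11.15, 11.13 and 11.25. Of its 6 sets, 5 entered the EGF comparison, and all 5 were higher with EGF in Hmhi cells, by 0.47 to 1.26. The same 5 sets divided in MYC-TA against Hmhi EGF, with 2 higher and 3 lower, between -0.42 and 0.45. The sets of this gene may read different splice forms, and no annotation used here assigns them.

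Hmgb2 encodes a high mobility group protein that bends DNA. It read 10.34, 10.81, 10.08 and 11.89 on its brightest set (1452534_a_at). The second set read 9.67, 10.12, 9.68 and 11.19, again with MYC-TA highest and with Hmhi starved and the array labelled Miz1 kd within 0.01. It was the one gene of the 10 whose lowest array was the one labelled Miz1 kd, although the gap of 0.26 to Hmhi starved was below the SD between probe sets. MYC-TA was 2.11-fold above Hmhi EGF and 3.50-fold above the array labelled Miz1 kd. The dimmest set was above the array median in MYC-TA only, at 8.03.

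Hells encodes a chromatin remodeller of the SNF2 family (also called LSH) that is needed for DNA methylation. It read 8.26, 9.54, 9.06 and 10.85 (1417541_at). Every step between neighbouring arrays exceeded the SD between probe sets, and the full span from Hmhi starved to MYC-TA was 6.01-fold, the widest of the 10 genes. The second set read 7.48, 8.44, 8.09 and 9.37, in the same order. The dimmest of its 3 sets was above the array median in MYC-TA only, at 7.06.

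Ezh2 encodes the methyltransferase of Polycomb repressive complex 2, which methylates histone H3. Its only set (1416544_at) read 9.73, 10.72, 10.69 and 10.85. The 3 EGF arrays lay within 0.159 of each other, and all were 0.961 to 1.12 above Hmhi starved. Hmhi EGF was 1.98-fold above Hmhi starved, just short of 2-fold. On its brightest set, Tmpo had the profile closest to that of Ezh2 among the 10 genes. Their root mean square distance was 0.035 log2 units over the 4 arrays.

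Uhrf1 encodes the protein that recognises hemimethylated DNA after replication and recruits the maintenance methyltransferase encoded by Dnmt1. Uhrf1 read 8.88, 10.01, 9.88 and 10.74 (1415810_at), with MYC-TA 0.73 above Hmhi EGF. Its second set read 6.90, 7.84, 7.91 and 8.64. Dnmt1 read 9.65, 10.94, 11.04 and 11.14 (1435122_x_at), and its 2 other sets had the same order of arrays. The 3 EGF arrays of Dnmt1 lay within 0.196, whereas those of Uhrf1 spread over 0.856. These partners in maintenance methylation had like differences between Hmhi EGF and Hmhi starved, at 1.12 and 1.29, but unlike ones between MYC-TA and Hmhi EGF, at 0.73 and 0.20.

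Hmhi EGF was compared with Hmhi starved, which addresses the effect of 14 days of EGF. Of the 10 genes, 9 were higher with EGF, beside 50.5% of all genes, and Lmna was lower. Lbr, Dnmt1, Hells and Uhrf1 were at least 2-fold higher, at 1.99, 1.29, 1.27 and 1.12, which is 4 of 10 genes beside 7.98% of all 11461 genes. None was at least 2-fold lower, beside 4.96% of all genes. The median difference of the 10 genes was 0.95, against 0.006 over all genes. Of the 24 member probe sets that entered, 20 were higher and 4, all of Lmna, were lower. Just outside the threshold lay Ezh2 at 0.985, Lmna at -0.968 and Tmpo at 0.92, while Uhrf1 lay just inside it. At 1.5-fold, 8 of 10 genes passed, beside 30.0% of all genes. Markers were also 2-fold apart between these arrays, in both directions. Of the 8 melanocyte markers that entered, Pmel and Dct were higher, at 1.51 and 1.48, and Tyrp1 was lower, at -1.02. Of 3 macrophage and blood cell markers, Cd68 was higher at 1.52 and Csf1r lower at -2.66. Of 5 fibroblast markers, Postn was higher at 2.24 and Dcn lower at -1.16, and the keratinocyte and endothelial lists had 0 genes 2-fold apart. Several of these differences are as large as those of the 10 genes, and their part in them was not tested.

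The next comparison addresses the knockdown construct under EGF and takes the array labelled Miz1 kd minus Hmhi EGF. Hmgb2, Hells and Lmnb1 were the lowest of the 10, at -0.73, -0.47 and -0.42, and each was lower on every probe set that entered. Lmnb2 and Lmna were higher by 0.21 and 0.17, within the SD between probe sets of 0.22. In all, 7 genes were lower and 3 higher, where 52.3% of all genes were higher. Of the 10 genes, 0 were 2-fold apart, beside 2.79% of all 11394 genes. The median was -0.074, against 0.018 over all genes. Ezh2 and Tmpo were both at -0.024. The sign for Tmpo turned to 0.12 with the mean of its probe sets. Among the markers, Dct and Postn were 2-fold lower, at -2.07 and -1.30.

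MYC-TA was compared with Hmhi EGF, which addresses MYC-TA under EGF. All 10 genes were higher in MYC-TA on their brightest set, beside 55.1% of all genes. For 6 of the 10 the difference was less than the SD between probe sets of 0.25. Hells, Hmgb2 and Lmnb1 were at least 2-fold higher, at 1.32, 1.08 and 1.02, which is 3 of 10 genes beside 1.30% of all 11534 genes. With the mean of all probe sets only 1 of 10, Hmgb2, passed, since Lmnb1 came to 0.944 and Hells to 0.971. No gene was 2-fold lower, beside 1.65% of all genes. The median was 0.21, against 0.045 over all genes. Tmpo, at 0.10, turned to -0.027 with the mean of its probe sets, and Lmna, at 0.21, turned to -0.27 with plain _at sets, which is more than the SD between probe sets. Among the markers, Col3a1 and Dcn were 2-fold higher, at 2.48 and 1.22, and Lyz2 was lower, at -1.63.

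**Figure D2:**
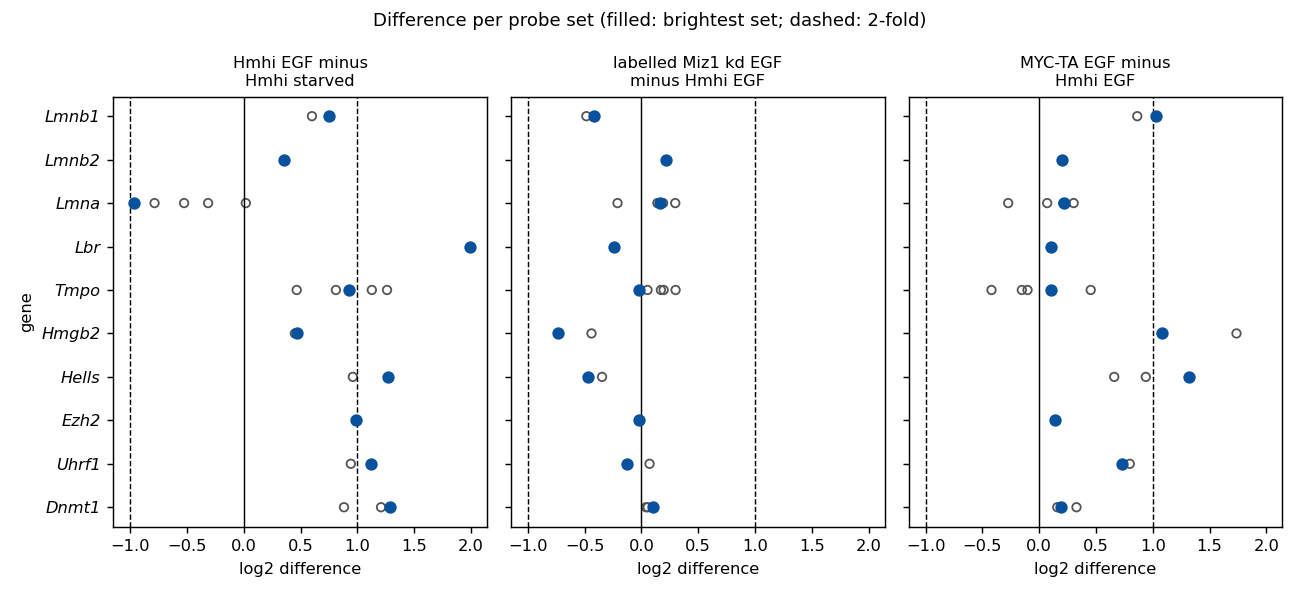
Log2 difference (horizontal axis) of each probe set that entered a comparison, by gene (vertical axis), for Hmhi EGF minus Hmhi starved, labelled Miz1 kd minus Hmhi EGF and MYC-TA minus Hmhi EGF. Filled points are the brightest set of a gene, open points its other sets, and dashed lines mark 2-fold. In the left panel Lmna alone lies to the left of 0 on its brightest set, and in the right panel Hells, Hmgb2 and Lmnb1 reach 2-fold.

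Between the arrays of MYC-TA and of the line labelled Miz1 kd, both with EGF, 3 genes were at least 2-fold apart: Hmgb2, Hells and Lmnb1, at 1.81, 1.79 and 1.45. That is 3 of 10 genes, all higher in MYC-TA, beside 6.72% of all 11613 genes. Uhrf1 followed at 0.86, and Lmnb2 was at -0.008. The summed signal of the fibroblast markers was lowest on the array labelled Miz1 kd and highest in MYC-TA. It was 11.84, 11.60, 10.78 and 12.39 on the log2 scale, led by Dcn at 11.50, 10.35, 9.45 and 11.56. On its brightest set Hmgb2 was lowest on the array labelled Miz1 kd, 0.26 below Hmhi starved. Hells and Lmnb1 were lowest in Hmhi starved, 0.80 and 0.33 below the array labelled Miz1 kd. The gaps of Hmgb2 and Lmnb1 were less than the SD between probe sets of 0.42. Col3a1 read 6.59, 7.21, 6.25 and 9.69, while Col1a1 stayed between 5.84 and 6.03. Markers at least 2-fold higher in MYC-TA than on the array labelled Miz1 kd were Col3a1, Dcn, Dct, Postn and Kit. They differed by 3.43, 2.12, 1.88, 1.175 and 1.15, and Lyz2 was lower, at -1.15. The part of these markers in the differences was not tested.

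Against Hmhi starved, MYC-TA was at least 2-fold higher for 8 of 10 genes, beside 8.33% of all 11598 genes, with a median of 1.51 against 0.060 over all genes. The exceptions were Lmnb2, at 0.55, and Lmna, at -0.75. The array labelled Miz1 kd was at least 2-fold above Hmhi starved for Lbr and Dnmt1, at 1.75 and 1.39, which is 2 of 10 genes beside 7.45% of all 11455 genes. Uhrf1 was at 0.998 and Ezh2 at 0.961, just outside. Counted in either direction, these 2 of 10 stand beside 14.9% of all genes. With only probe sets ending in a plain _at, where Dnmt1 has none, the count was 1 of the 8 genes that entered, beside 15.4% of all genes, so it was near the background. It was 3 of 10 with loess, beside 15.0%, and 3 of 10 with the mean of all sets, beside 12.1%.

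Lists of genes that work with the 10 had smaller medians than the 10 genes in Hmhi EGF minus Hmhi starved. Counts are of list members that entered the comparison, and are to be read beside the 7.98% of all genes that were at least 2-fold higher and the 4.96% that were lower. Of 19 lamina partners and envelope proteins, 1 was at least 2-fold higher and 0 lower, with a median of 0.28. That gene was Syne2, a nesprin that links the nucleus to the cytoskeleton, at 1.20, and Sun1, its partner in the inner membrane, was higher by 0.915. Rce1, a protease in the maturation of prenylated proteins, was higher by 0.81. Of 22 nuclear pore genes 2 were 2-fold higher, Nup210 at 2.71 and Ndc1 at 1.03, both membrane proteins of the pore. The counts of both lists are near the share of all genes. Nup210 read 6.50, 9.21, 8.91 and 10.31, with Hmhi starved just below the array median, where background limits a fold.

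The chromatin partners differed by list. Of 10 partners of EZH2 in its complex, 0 were 2-fold apart and the median was 0.050, with Ezh1, the paralogue of Ezh2, at -0.595. Of 14 genes of DNA methylation and demethylation 0 were 2-fold apart, with a median of 0.12, led by Mbd4, a glycosylase of DNA repair, at 0.91. Of 18 heterochromatin genes 0 were 2-fold apart, with a median of 0.070, led by Cbx1, which encodes a heterochromatin protein 1, at 0.83. Of 6 other high mobility group genes 1 was, Hmga2, an architectural factor, at 2.10, from 10.15 to 12.25. All 6 were higher in Hmhi EGF, with a median of 0.40.

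In Hmhi EGF minus Hmhi starved, cell cycle genes had medians closer to that of the 10 than the partner lists had. Of 19 mitosis genes 8 were at least 2-fold higher with EGF than in Hmhi starved, beside 7.98% of all genes, with a median of 0.957, led by Ccnb2 (cyclin B2) and Mki67 (the Ki-67 antigen), at 1.54 and 1.53. Of 22 S phase genes 3 were, with a median of 0.56, led by Prim1 (a primase subunit) at 1.95. In the array labelled Miz1 kd minus Hmhi EGF the mitosis median was -0.30 and the S phase median -0.18, against -0.074 for the 10 genes. Rrm2, a subunit of ribonucleotide reductase, was at -1.09. In MYC-TA minus Hmhi EGF the S phase median was 0.76, with 3 of 22 genes 2-fold higher, beside 1.30% of all genes. The mitosis median was 0.51, with 1 of 19 genes 2-fold higher. Both medians were above that of the 10 genes, 0.21. Kif11, a mitotic kinesin, and Mcm5, of the replicative helicase, were at 1.20 and 1.10.

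In MYC-TA minus Hmhi EGF the medians of the 6 partner lists lay between -0.048 and 0.23. At least 2-fold higher were 1.30% of all genes, and 1.65% were lower. The lamina partners had a median of 0.027 and the EZH2 partners -0.048, with Phf1, a Polycomb accessory protein, 2-fold lower at -1.31. The other high mobility group genes had a median of -0.030. Pore genes had 0.23, again with Nup210 2-fold higher at 1.10, and DNA methylation genes 0.22. Cdca7, which works with HELLS in chromatin remodelling, was the one DNA methylation gene 2-fold higher, at 1.26, and Uhrf2, the paralogue of Uhrf1, was at 0.98. Heterochromatin genes had 0.17, led by the histone chaperone gene Chaf1b at 0.81 and the histone acetyltransferase gene Hat1 at 0.73. None of 19 in that list was 2-fold apart. In the array labelled Miz1 kd, 0 genes of these 6 partner lists were 2-fold from Hmhi EGF, beside 2.79% of all genes, itself a small share.

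**Figure D3:**
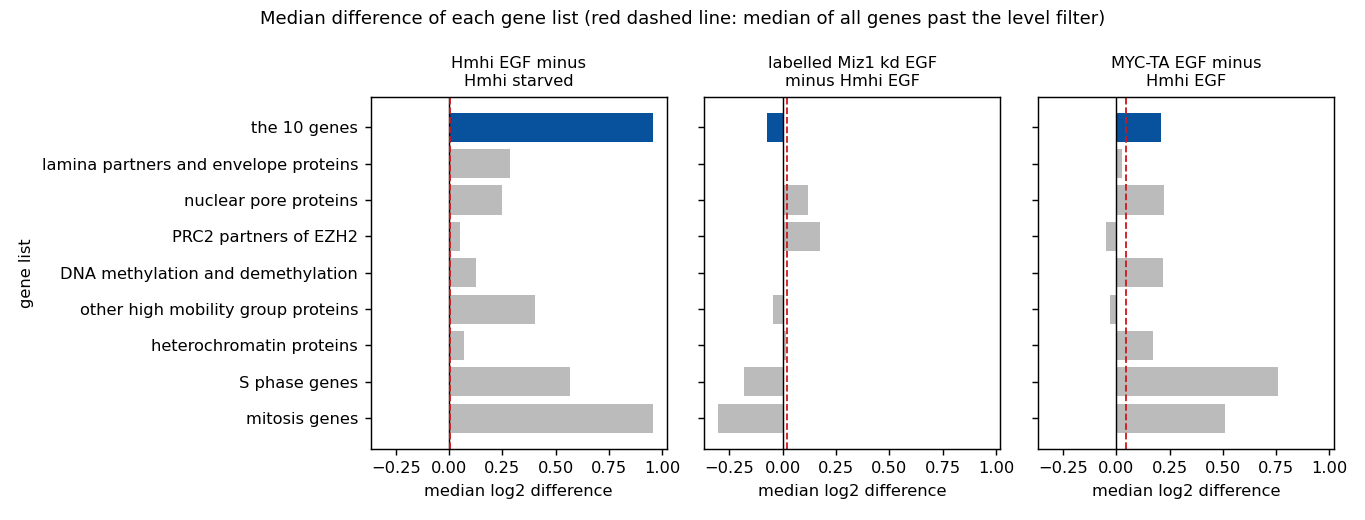
Median log2 difference (horizontal axis) of the 10 genes (blue) and of 8 other gene lists (grey, vertical axis) in Hmhi EGF minus Hmhi starved, labelled Miz1 kd minus Hmhi EGF and MYC-TA minus Hmhi EGF. The red dashed line is the median of all genes that entered. With EGF the 10 genes and the mitosis genes have the highest medians, at 0.95 and 0.957, and in MYC-TA the S phase genes do, at 0.76.

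Genes used as senescence markers went both ways with EGF. Of 9 that entered, 2 were at least 2-fold higher with EGF than without it and 2 lower, beside 7.98% and 4.96% of all genes. Cdkn1a, which encodes the cell cycle inhibitor p21, read 8.12, 10.29, 9.49 and 10.11. It was thus highest in Hmhi EGF, where Lmnb1 was also above Hmhi starved. Glb1, the gene of senescence-associated beta-galactosidase, read 9.39, 10.78, 10.37 and 10.52, and Igfbp3 read 13.38, 10.76, 10.63 and 10.62. Cdkn2a, the locus of further cell cycle inhibitors, read 7.87, 7.89, 7.59 and 8.72.

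Profiles most like those of 3 of the genes were looked up among 11244 other genes, as the smallest root mean square distance over the 4 arrays after the mean of each gene was taken off. Those nearest to Lmnb1 were Itprip, Mcm5 and Mcm3, at 0.055, 0.063 and 0.074 log2 units. Those nearest to Hells were Aldoc, L3hypdh and Golm1, at 0.17, 0.19 and 0.21, and those nearest to Lmna were Leng1, Map2 and Nfkbib, at 0.013, 0.019 and 0.028. Aldoc and L3hypdh were below the array median in Hmhi starved, at 5.48 and 6.04. They were also below it on the array labelled Miz1 kd, at 6.20 and 6.595, and background limits such profiles. Only genes that entered some comparison were searched, and unnamed gene models, such as RIKEN and Gm ones, were left out. With 4 arrays, likeness of this kind is a description of these arrays.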

How the data were processed

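Total RNA (100 ng, IVT-Express labelling, per the labels' protocols) of 4 cultures was measured on 1 array each. The deposited values, which run from 2.94 to 15.12, are treated here as log2 signals. Sorting each column gave values that agree to within 0.004, so the authors' normalization had equalised the arrays and would hide any change common to all genes. The method and log base are not given in the sources used here. Probe sets were named by a 2016 platform annotation: 34945 had 1 symbol, 932 several and 9160 non-control sets none. Entrez identifiers of 34741 matched the RefSeq table, and 0 symbols changed. Each gene was read by its brightest probe set, and entered a comparison if either array was at or above its median of non-control sets. Differences of at least 2-fold were counted. All genes were computed, and no test was possible with 1 array per condition. The number of arrays limits the precision.

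The genes and lists were chosen with earlier results of these data known. All members are named, with up to 3 genes per list by size of difference. Alternatives were a common median, quantile normalization, loess (span 0.4), no filter, a 75th percentile filter, the mean of all probe sets, plain _at sets and a 1.5-fold threshold. The steps were tested on simulated data. Python 3.11.15, pandas 2.3.3, numpy 2.4.6, statsmodels 0.14.6 and matplotlib 3.10.9 were used.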

Additional observations from a re-analysis of the deposited data

How the results depend on the processing

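No paired analysis was possible because there was only 1 array of each culture, and leaving out an array would have removed its condition. All alternatives here were planned. The common median and quantile settings move little, since the arrays were already normalized. Under these 2 settings, no filter and the 75th percentile filter, 0 of the member differences changed sign or their side of 2-fold. Loess changed 0 signs and 2 calls, Ezh2 in Hmhi EGF minus Hmhi starved and Uhrf1 in labelled Miz1 kd minus Hmhi starved, both now at 1.01. With the mean of all probe sets 4 of 60 differences changed sign and 4 their call, and with plain _at sets 4 of 51 changed sign and 0 their call. All of the sign changes were of Lmna or Tmpo. The count of genes at least 2-fold apart for MYC-TA minus Hmhi EGF was 1 with the mean of all sets, against 3. For labelled Miz1 kd minus Hmhi starved it was 1 of the 8 genes that entered with plain _at sets, beside 15.4% of all genes, against 2 of 10 beside 14.9%. At 1.5-fold the counts were 8 for Hmhi EGF minus Hmhi starved, 1 for labelled Miz1 kd minus Hmhi EGF and 7 for labelled Miz1 kd minus Hmhi starved, and the share of all genes passing was larger too, at 30.0%, 9.14% and 35.0%. Every median of the 10 genes kept its sign and moved by less than the SD between probe sets under all 7 alternatives that apply to it.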
